A study of Mus musculus with 4 samples.

Results

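The genes described here encode secreted factors that draw neutrophils and monocytes or drive their production: the CXC chemokines Cxcl1, Cxcl2, Cxcl3 and Cxcl5, the CC chemokines Ccl2, Ccl7 and Ccl20, and the colony-stimulating factors Csf1, Csf2 and Csf3. They were chosen by name, as products that 4T1 cells are known to secrete, but with earlier results of these data known. The set makes up 10 of the 53647 genes in the deposited tables, where all 10 were found by symbol. RNA sequencing counts were compared in 4T1, a mouse mammary carcinoma cell line labelled as wild type, between 2 libraries of cells given EGFP mRNA (Mock) and 2 of cells given mRNA for uniSTING, a synthetic mimic of the STING adaptor of cytosolic DNA sensing. All 4 libraries came from cells that received an mRNA, delivered with either a transfection reagent or lipid nanoparticles; the labels do not say which carrier a library had, nor the dose or the time, and no untreated cells were analysed here. The comparison asks how RNA levels of these factors differ in tumour cells given the mimic.

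Cxcl1, Cxcl2, Cxcl3 and Cxcl5 act on the receptor CXCR2 of neutrophils and recruit them from blood. Ccl2 and Ccl7 act on CCR2 and mobilise monocytes, and Ccl20 acts on CCR6 of dendritic cells and lymphocytes. Csf1 (M-CSF) sustains macrophages, Csf2 (GM-CSF) granulocytes, macrophages and dendritic cells, and Csf3 (G-CSF) the production of neutrophils, whose expansion is a known trait of mice that carry 4T1 tumours. Many of these genes are classical targets of NF-kB, and their short-lived mRNAs are bound by proteins that trigger decay.

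With uniSTING 4 of the genes were higher and 1 was lower. The neutrophil chemokine genes Cxcl5 and Cxcl1 rose 2.01-fold and 1.74-fold, Csf3 rose 1.38-fold, and Csf2 rose from nearly no reads. Csf1, the most abundant of the 10, fell 1.54-fold. Ccl2 and Cxcl3 had higher values in both uniSTING libraries but did not pass the test, Ccl20 was at a similar level in both groups, and Cxcl2 and Ccl7 had too few reads to be tested. Of the 8 tested genes, 4 therefore rose, 1 fell and 3 did not pass (edgeR quasi-likelihood test, Benjamini-Hochberg adjusted p under 0.05 over 12972 genes). Over all genes tested, 50.2% passed, 24.9% as higher and 25.4% as lower, so that passing the threshold was common in this comparison. A change of at least 1.5-fold past the same threshold was rarer, at 5.19% of tested genes as higher and 4.52% as lower, and it was reached upward by Cxcl1, Cxcl5 and Csf2 and downward by Csf1. The median change of the 8 tested genes was 0.56 on the log2 scale, against 0.006 over all genes tested. The 10 genes are short, with a median exon length of 1.64 kb against 4.15 kb over all genes tested. Once a trend of fold change with exon length was removed their median was 0.43, and 0.41 with a GC trend removed as well. These counts and medians of change describe the genes that passed the low count filter and not all 10. Csf2 passed that filter only through its uniSTING libraries.

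The 4 libraries held 17502694 to 25071840 counts. The spread between the 2 libraries of a group was estimated over genes with a mean of at least 50 counts. It was 1.47 (Mock) and 1.52 (uniSTING) times the variance of counting alone. This estimate used the median absolute deviation, which gives little weight to the genes that differ most. The labels name the libraries preparation 1 and preparation 2 without saying whether these were separate cultures, so the p-values rest on a spread that may be only technical. Epithelial genes of the line were abundant, with the keratin gene Krt8 at 1260 to 1319 CPM, the count as a share of the scaled library size. The replicate 1 libraries also held reads of myeloid genes that the replicate 2 libraries lacked: the macrophage and neutrophil lysozyme gene Lyz2 had 155 and 290 counts in replicate 1 of Mock and uniSTING and 0 in both replicate 2 libraries. Over 9 myeloid markers the summed level was 18.8 and 7.51 CPM in Mock and 28.9 and 11.6 CPM in uniSTING (replicates 1 and 2), and Itgam was at 0 in all 4 libraries. Of the 9, Cd68, a lysosomal gene of macrophages, was read in all 4 libraries, 147 and 142 times with Mock and 201 and 260 times with uniSTING, and rose (edgeR, adjusted p = 0.00650); its part in the results was not tested. Csf1r was also read in all 4 libraries, 21 and 22 times with Mock and 23 and 28 times with uniSTING. Fcgr3 had 2 counts in Mock replicate 2 and 0 in uniSTING replicate 2. The excess in replicate 1 was not limited to myeloid genes. The endothelial markers summed to 1.76 and 0.226 CPM in Mock and 1.07 and 0.161 CPM in uniSTING (replicates 1 and 2). The fibroblast gene Dcn had 7 and 13 counts in replicate 1 of Mock and uniSTING and 0 in both replicate 2 libraries. In replicate 2, Lyz2, Ptprc, Adgre1, Ly6g and Itgax were all at 0 but Cd68 and Csf1r were not. The log2 fold changes of Cxcl1, Cxcl5, Csf1 and Csf3 there, from 1 library a group, were 0.90, 0.99, -0.62 and 0.42. That of Cd68 was 0.69. Whether the reads of these marker genes bear on the changes of the 10 genes was not tested.

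The promoter stretches below come from RefSeq (GRCm38.p6), which held a promoter for 6 of the 10 genes, and are shown because Cxcl1, Cxcl2 and Cxcl3 share 1 exact binding motif of NF-kB while differing widely in level. Each chemokine line gives the 100 bases before the annotated start, 5′ to 3′ on the gene's strand. Capitals mark the motif GGGAATTTCC and, after it, the TATA-type element ATAAAAG.
Cxcl1 (chr5:90891145-90891244, + strand): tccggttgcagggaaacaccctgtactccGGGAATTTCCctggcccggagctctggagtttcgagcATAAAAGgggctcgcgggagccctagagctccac
Cxcl2 (chr5:90903799-90903898, + strand): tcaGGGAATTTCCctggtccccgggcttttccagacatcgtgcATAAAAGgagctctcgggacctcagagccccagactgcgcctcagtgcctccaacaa
Cxcl3 (chr5:90786001-90786100, + strand): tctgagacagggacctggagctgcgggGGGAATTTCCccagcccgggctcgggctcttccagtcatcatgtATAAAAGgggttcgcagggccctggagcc
The motif began 71, 97 and 73 bases before the start in Cxcl1, Cxcl2 and Cxcl3. From its first base to that of ATAAAAG it was 37, 40 and 44 bases, so both elements kept their order and nearly their spacing. Searched on both strands over the 250 bases before each start, GGGAATTTCC was in 28 of 32851 mouse promoters (0.085%) and ATAAAAG in 4.83%. Neither was found in the windows of Csf1, Csf2 or Ccl20.

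For comparison, Csf1, the gene that fell, is given over 160 bases, with its match to the looser NF-kB consensus in capitals.
Csf1 (chr3:107760470-107760629, - strand): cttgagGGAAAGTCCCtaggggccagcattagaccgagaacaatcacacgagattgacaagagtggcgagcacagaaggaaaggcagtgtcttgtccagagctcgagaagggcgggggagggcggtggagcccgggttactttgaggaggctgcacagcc
This consensus, searched on both strands, was in 7.25% of promoters, among them Csf1, Ccl20 and the 3 chemokine genes above, where it falls on GGGAATTTCC and, on the other strand, on an overlapping match. It was not in the window of Csf2. The AP-1 motif TGANTCA, in 6.75% of promoters, was in none of the 6 windows. These are matches of letters and not measured binding. The motifs were chosen after the sequences had been read.

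Cxcl1 (ENSMUSG00000029380, chromosome 5, 91039100 to 91040974, GRCm39, as are all gene positions that follow), the mouse counterpart of the human GRO chemokines, was the most abundant of the 7 chemokine genes. Mock replicates 1 and 2 stood at 22.0 and 19.6 CPM, and uniSTING replicates 1 and 2 at 35.6 and 36.6 CPM. Both uniSTING libraries were above both Mock libraries, and the gap was far wider than that within either group. The means were 20.8 ± 1.70 and 36.1 ± 0.676 CPM (SD, n = 2 libraries per group), and edgeR put the rise at 0.80 on the log2 scale, with an SE of 0.08 and an adjusted p of 7.05e-06. In the replicate 1 libraries alone it was 0.69, and it stayed past the threshold in all 13 alternative settings, between 0.57 and 0.88.

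Cxcl5 (ENSMUSG00000029371, chromosome 5, 90907219 to 90909483), a neutrophil chemokine typical of epithelial cells, changed most among the abundant genes of the group. Its levels were 12.7 and 13.2 CPM in Mock and 25.6 and 26.3 CPM in uniSTING. The libraries of a group nearly coincided and the groups did not overlap. The log2 fold change was 1.01 (SE 0.07, adjusted p = 9.34e-07), and it was 1.01 and 0.99 in the replicate 1 and replicate 2 libraries. Fold changes in these data followed gene length, with short genes higher in uniSTING. Once this trend with exon length was removed the value was 0.84, and once a trend with GC content was removed as well it was 0.68, still past the threshold (adjusted p = 2.90e-05).

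Cxcl3 (chromosome 5, 90933962 to 90937459) was read 30 and 22 times in the Mock replicates and 36 and 56 times in the uniSTING replicates, or at 1.70, 0.996, 1.92 and 2.25 CPM. The uniSTING libraries were the higher ones, but the Mock libraries differed between themselves by more than the gap from Mock replicate 1 to uniSTING replicate 1. Its log2 fold change of 0.65 (SE 0.32) did not pass (adjusted p = 0.113), and it ran from 0.30 without Mock replicate 2 to 1.06 without Mock replicate 1. Cxcl2 (chromosome 5, 91051730 to 91053797), also named MIP-2, was read 6 and 7 times with Mock and 8 and 14 times with uniSTING. The ratio of its summed counts, scaled for library size, was 1.54, with an exact 95% interval of 0.743 to 3.33 that covers counting error only and includes no difference.

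In Cxcl1, Cxcl2 and Cxcl3 the exons that the annotation lists for all transcripts merge into 1 block over the whole gene, so that reads from their introns are counted too. Cxcl5 has 2 such blocks, and reads of unspliced RNA cannot be told from those of mature mRNA in these counts.

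**Figure D1:**
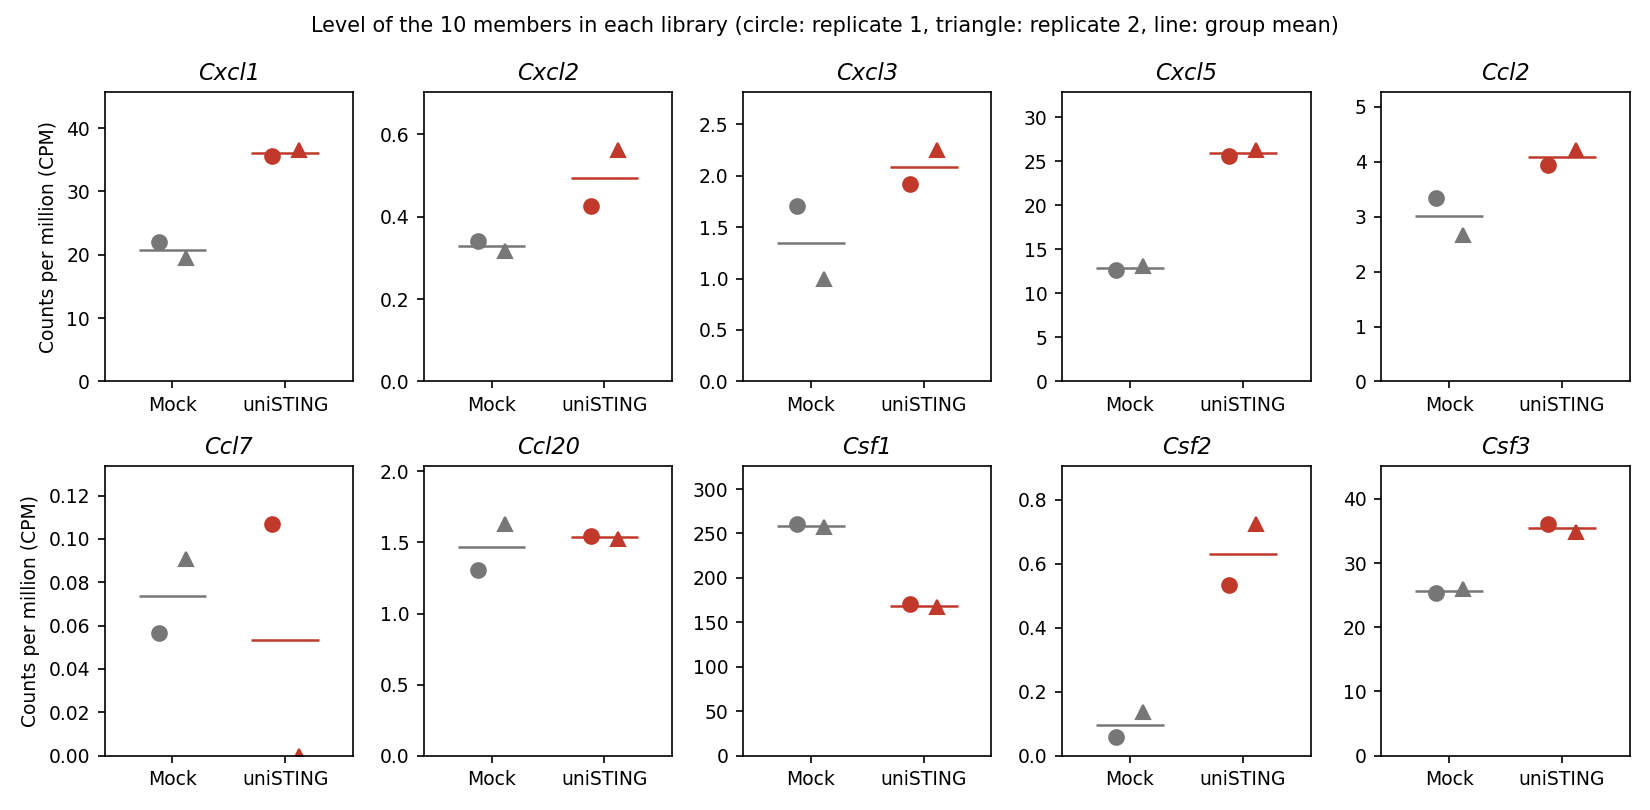
CPM of each of the 10 genes in the 4 libraries, each panel with its own axis from 0; circles are replicate 1, triangles replicate 2 and lines group means. Cxcl1, Cxcl5, Csf2 and Csf3 are higher and Csf1 lower in both uniSTING libraries, while the values of Ccl7 and Ccl20 overlap.

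The CXC genes lie in 1 cluster on chromosome 5, 146.6 kb from the start of Cxcl5 to the end of Cxcl2. Cxcl5 is at one end, with the start of Cxcl1 131.9 kb away, and that of Cxcl2 144.5 kb away. Between Cxcl5 and Cxcl1, the platelet chemokine gene Ppbp was read 5 times in each Mock library and 11 and 12 times with uniSTING, and Pf4 had 3 counts in all. Cxcl15 was read in the replicate 1 libraries only, with 23 and 33 counts. Reads of the cluster thus came mostly from Cxcl1 and Cxcl5, with Cxcl3 far lower and the other genes lower still.

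**Figure D2:**
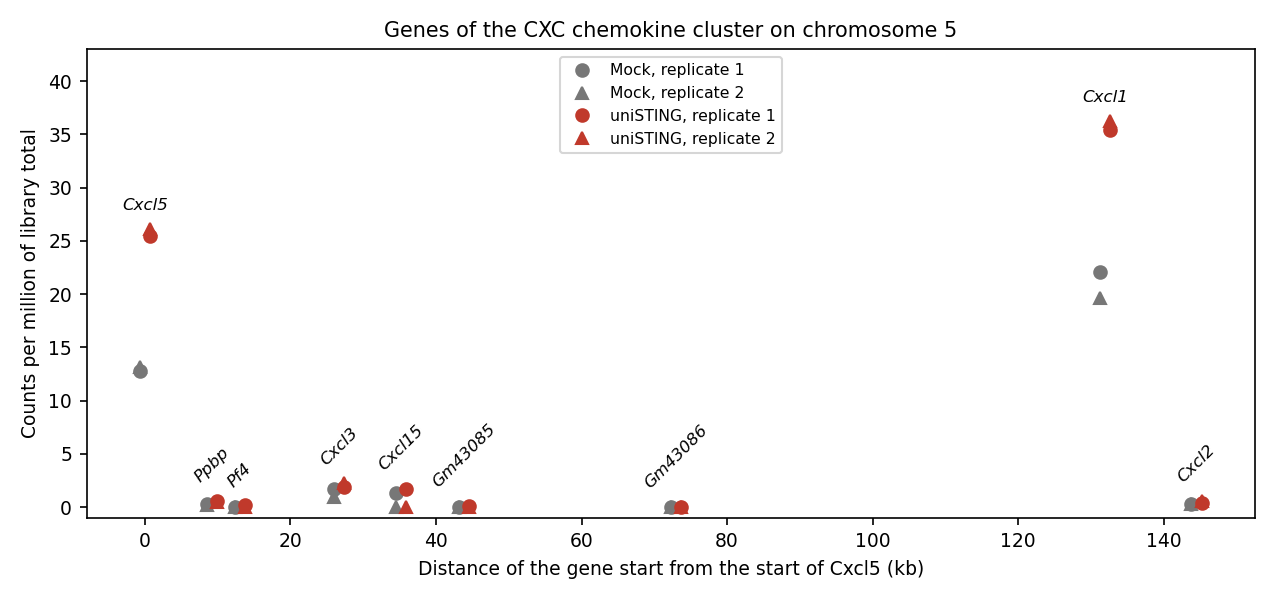
CPM of the library total for each gene of the chromosome 5 cluster against the distance of its start from that of Cxcl5, in kb; circles are replicate 1 and triangles replicate 2. Cxcl5 and Cxcl1 stand above all other genes of the cluster, with both uniSTING libraries above both Mock libraries.

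Ccl2 (ENSMUSG00000035385, chromosome 11, 81926397 to 81928279), the monocyte chemokine MCP-1, was low, at 3.35 and 2.67 CPM in Mock and 3.95 and 4.22 CPM in uniSTING. The groups did not overlap, which was also the case for 37.8% of tested genes in the upward and 37.3% in the downward direction. The log2 fold change of 0.45 (SE 0.19) did not pass (adjusted p = 0.0729), nor did it in any alternative setting (adjusted p from 0.0527 to 0.640). With the length trend removed it was 0.20, since Ccl2 has short exons of 1.14 kb in all. Its neighbour Ccl7 (chromosome 11, 81936538 to 81938351), which shares its receptor, was read 1 and 2 times with Mock and 2 and 0 times with uniSTING. That is at or under the 3 counts over a group taken as the floor (0.0755 CPM in Mock, 0.0688 CPM in uniSTING), so no difference could be detected with this many reads. Ccl11 and Ccl12, further along the same cluster, had no count in any library.

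Ccl20 (chromosome 1, 83094487 to 83096888), an epithelial chemokine for CCR6-bearing cells, had 1.31 and 1.63 CPM in Mock and 1.55 and 1.53 CPM in uniSTING. The uniSTING libraries lay between the Mock libraries. The log2 fold change was 0.06 (SE 0.30, adjusted p = 0.888) and the ratio of summed counts 1.03, with a 95% counting interval of 0.718 to 1.49. Its sign was negative with the length trend removed (-0.16), with length and GC trends removed (-0.32), without Mock replicate 1 (-0.092) and in the replicate 2 libraries alone (-0.088), and in none of these did it pass.

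Csf1 (ENSMUSG00000014599, chromosome 3, 107648364 to 107667785, minus strand), the growth factor of macrophages, was the only gene of the 10 to fall. It had 261 and 257 CPM in Mock and 170.2 and 167.0 CPM in uniSTING. The gap between groups was many times the spread within them, with means of 259 ± 2.54 and 169 ± 2.30 CPM. The log2 fold change was -0.62 (SE 0.02, adjusted p = 7.62e-09), and it was -0.61 and -0.62 in the replicate 1 and replicate 2 libraries. Csf1 has the longest exon sequence of the 10, at 5.28 kb, and long genes were lower in uniSTING. With the length trend removed the value was -0.57, and with length and GC trends removed it was -0.53 (adjusted p = 3.82e-08). In a whole culture, fewer cells that make an mRNA and less of it per cell cannot be told apart.

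Csf3 (ENSMUSG00000038067, chromosome 11, 98592089 to 98594455), the neutrophil growth factor, went the other way. Its levels were 25.4 and 26.0 CPM in Mock and 36.1 and 34.8 CPM in uniSTING, without overlap. The log2 fold change was 0.46 (SE 0.07, adjusted p = 1.79e-04), with 0.50 and 0.42 in the replicate 1 and replicate 2 libraries. The rise was smaller with the length trend removed, at 0.24 (adjusted p = 0.0130), and was 0.32 with length and GC trends removed (adjusted p = 0.00286).

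Csf2 (ENSMUSG00000018916, chromosome 11, 54138097 to 54140493, minus strand), the granulocyte and macrophage growth factor, was read 1 and 3 times with Mock and 10 and 18 times with uniSTING. Both uniSTING libraries were higher, on few reads. The ratio of summed counts was 6.37, with a 95% counting interval of 2.23 to 25.0, and edgeR's log2 fold change was 2.60 (SE 0.71, adjusted p = 0.0111). Csf2 entered that test only because its uniSTING libraries, the higher ones, passed the low count filter, and the p-value does not allow for this. DESeq2 did not make the call (adjusted p = 0.0598). Leaving out Mock replicate 1 ended it as well (log2 fold change 2.17, adjusted p = 0.0876), while without Mock replicate 2 the value was 3.35 (adjusted p = 0.0493). Csf2 was not tested without uniSTING replicate 2 or with a filter of 1 CPM in 2 libraries. Gm12223, a gene on the opposite strand that was listed at 0 in all libraries, overlaps 96 bases of the Csf2 exons, and the counts were made without strand.

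**Figure D3:**
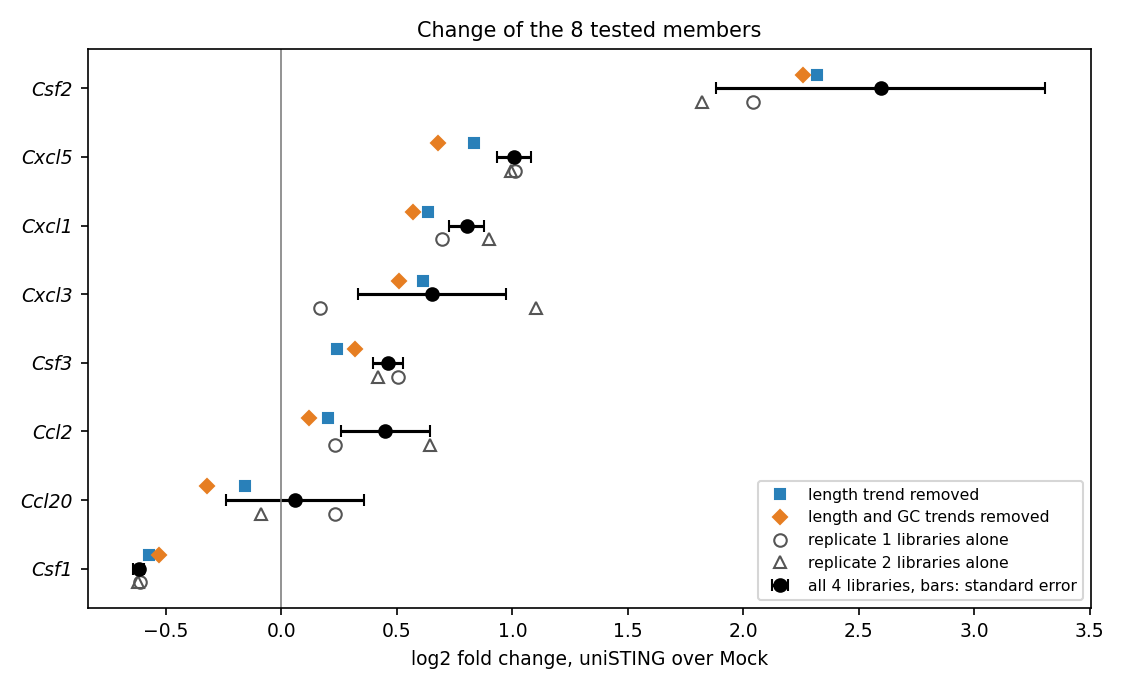
Log2 fold change of uniSTING over Mock for the 8 tested genes, from all 4 libraries (black, with the standard error), with length or length and GC trends removed (coloured), and in each replicate number alone (open). Cxcl5, Cxcl1, Csf3 and Csf2 lie above 0 and Csf1 below 0 in each of these, and Ccl20 lies on both sides. Cxcl3 and Ccl2, which did not pass, also lie above 0 in each.

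Levels of different genes are comparable only per exon length. On the scale of CPM per kb, Csf1 led in both groups, at 49.0 in Mock and 31.9 in uniSTING. Csf3 followed at 18.2 and 25.1, then Cxcl1 at 11.1 and 19.2, Cxcl5 at 6.93 and 13.9, Ccl2 at 2.64 and 3.59 and Ccl20 at 1.03 and 1.08. The libraries of these neighbours did not overlap within a group, so that the first 6 places were the same in all 4 libraries. Cxcl3, Cxcl2, Csf2 and Ccl7 were all under 1 CPM per kb. In Mock the values of Cxcl2 and Csf2 overlapped between libraries, as did those of Csf2 and Ccl7. In uniSTING, Csf2 was at 0.667 and 0.904, above Cxcl3 at 0.549 and 0.643, which it had been below in Mock. The lengths used for Cxcl1, Cxcl2 and Cxcl3 (1875, 2068 and 3498 bases) span the whole gene, introns included. That of Csf2 is 800 bases in 4 exon blocks. The places of Cxcl1, Cxcl2 and Cxcl3 beside other genes, and that of Csf2 above Cxcl3, depend on these lengths. In CPM without length, Cxcl3 was above Csf2 in uniSTING, with means of 2.09 and 0.628. Set among the tested genes, Csf1 was higher per kb than 91.6% of them in Mock and 86.0% in uniSTING, Cxcl1 than 64.9% and 77.3%, and Cxcl5 than 52.9% and 70.3%.

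With Csf1 lower and Csf3 higher, the mix of colony-stimulating factor transcripts differed between groups. Per kb, Csf1 made up 73.2% and 72.4% of the summed level of the 3 genes with Mock, against 55.2% and 55.3% with uniSTING. The ratio of Csf3 to Csf1 per kb was 0.365 and 0.379 in Mock and 0.792 and 0.780 in uniSTING. These shares did not overlap between groups, but with 2 libraries a group they are given as values without a test. No length trend was removed from them. With it removed, the log2 fold change of Csf3 was 0.24 instead of 0.46 and that of Csf1 -0.57 instead of -0.62, so the shift in the mix is in part tied to this trend. The summed level of the 4 CXC genes was 19.2 and 17.9 CPM per kb in Mock and 33.5 and 34.5 in uniSTING, while the ratio of Cxcl5 to Cxcl1 per kb moved less, from 0.580 and 0.678 to 0.724 and 0.724.

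**Figure D4:**
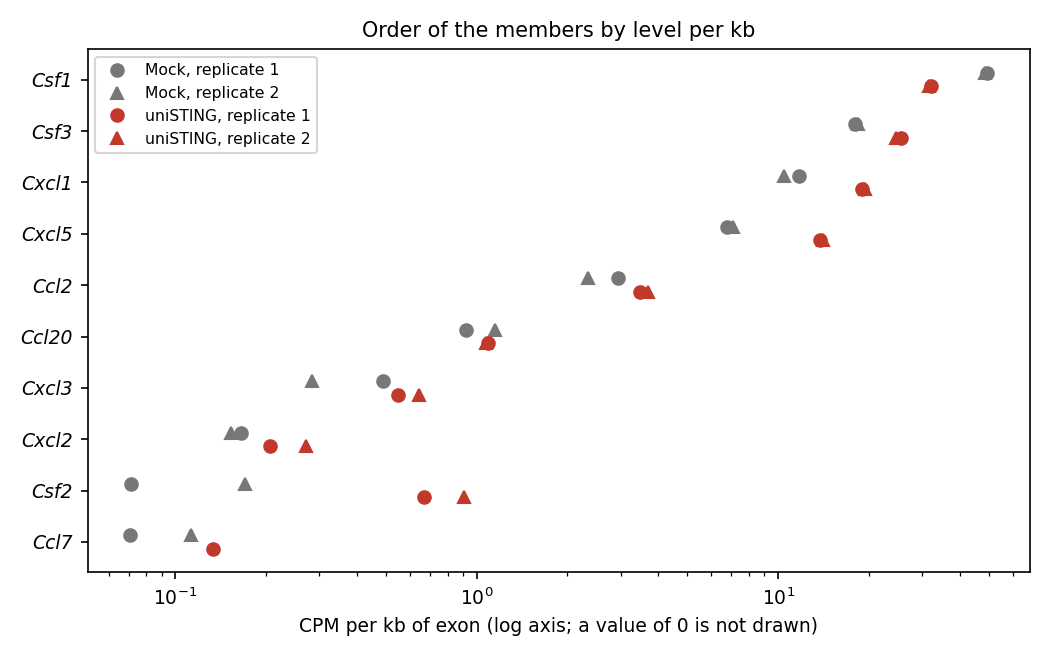
CPM per kb of exon of the 10 genes in each library, on a log axis, ordered by the Mock mean. The 6 most abundant genes keep their order in both groups, and the 0 of Ccl7 in uniSTING replicate 2 is not drawn. Csf2 passes Cxcl2 and Cxcl3 in uniSTING on this scale, where Cxcl1, Cxcl2 and Cxcl3 are divided by the length of the whole gene, introns included.

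Receptor genes for these factors had few reads or none. Of 13 receptor genes, Cxcr1, Ackr1, Ccr3 and Ccr6 were at 0 throughout, so that 3 counts bound them at 0.0755 CPM with Mock and 0.0688 CPM with uniSTING, and Cxcr2 had 1 count in each group. Ccr1, Ccr2, Ackr2, Csf2ra, Csf2rb, Csf2rb2 and Csf3r had at most 6 counts in a group. Csf1r, the receptor for Csf1, was the only one tested. It was read 21 and 22 times with Mock and 23 and 28 times with uniSTING and did not pass (log2 fold change 0.11, SE 0.35, adjusted p = 0.824).

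Among other cytokines and chemokines that act on myeloid cells, 35 genes were listed and 18 tested, of which 8 rose, 1 fell and 9 did not pass. Over all genes tested, 24.9% were higher and 25.4% lower. The list's median log2 fold change was 0.43 and moved when 1 library was left out, to 0.07 without uniSTING replicate 1 (7 rose and 4 fell), 0.20 without Mock replicate 2 and 0.59 without uniSTING replicate 2 (13 rose and 1 fell). Tslp, an epithelial cytokine that acts on dendritic cells, rose from 15.4 and 16.4 CPM to 30.8 and 30.0 CPM (log2 fold change 0.93, SE 0.07). With the length trend removed the rise of Tslp was 0.70, and with length and GC trends removed 0.54. Il23a, the p19 subunit of interleukin 23, rose by 0.59, or by 0.45 and 0.46 with these removals. Spp1, which encodes osteopontin, rose by 0.43, or by 0.24 with the length trend removed and 0.18 with length and GC trends removed. Mif, the macrophage migration inhibitory factor and the most abundant gene of the list, rose by 0.19, but its direction depends on gene length, since it was -0.11 and past the threshold as lower with the length trend removed and 0.09 with length and GC trends removed. With limma-voom the list's median was 0.26, and with the length trend removed it was 0.25. Saa3, Lcn2, S100a8 and S100a9, known products of neutrophils and of inflamed epithelium, were read mainly in the replicate 1 libraries, together with Lyz2, and none passed. Whether the myeloid reads of replicate 1 bear on the list's other values was not tested.

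Among 25 transcriptional regulators of these genes, 5 rose, 11 fell and 9 did not pass, with a median of -0.08. The shares over all genes were 24.9% higher and 25.4% lower. Atf3, a stress-induced factor, rose from 24.6 and 26.6 CPM to 44.7 and 42.6 CPM (log2 fold change 0.77, SE 0.07). Nfkbia, the inhibitor and feedback target of NF-kB, rose by 0.48, or by 0.28 with the length trend removed, and Jun, a subunit of AP-1, by 0.30. Nfkb1, the p105 and p50 subunit gene, fell by 0.26, a call lost with the length trend removed (log2 fold change -0.02, adjusted p = 0.665). The number that fell was 7 with the length trend removed and 3 with length and GC trends removed, beside 5 and 7 that rose, so that the balance of this list depends on these trends.

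Proteins that bind and destabilise or stabilise mRNAs of this kind were measured by 14 genes. Of these 8 fell, none rose and 6 did not pass, with a median of -0.29, beside 25.4% lower and 24.9% higher over all genes. Khsrp, a decay-promoting protein that binds AU-rich elements, fell from 267 and 272 CPM to 193 and 197 CPM (log2 fold change -0.47, SE 0.02). Zfp36l2, of the tristetraprolin family, fell by 0.43, Hnrnpd (AUF1) by 0.31 (by 0.19 with the length trend removed) and Cnot1, the scaffold of the deadenylase complex, by 0.40. These genes are long, with a median exon length of 7.13 kb against 4.15 kb over all tested genes. With the length trend removed 6 fell and 4 rose, with a median of -0.05, and with length and GC trends removed 8 fell and 2 rose, with a median of -0.13. Khsrp and Zfp36l2 kept their falls with the length trend removed, at -0.47 and -0.46, while Cnot1 lost its call (log2 fold change -0.05, adjusted p = 0.0674). With length and GC trends removed, Khsrp and Zfp36l2 were at -0.35 and -0.41. Cnot1 was then at -0.11 and past the threshold again (edgeR, adjusted p = 9.71e-04).

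Of 16 tested genes for receptors and adaptors that signal towards these factors, 3 rose, 2 fell and 11 did not pass, beside 24.9% higher and 25.4% lower over all genes. The median was -0.04. Tlr4, the receptor for bacterial lipopolysaccharide, rose by 0.50 (SE 0.07, adjusted p = 2.02e-04) and Il1rap, the shared chain of the interleukin 1 receptor family, by 0.40. Il17ra fell by 0.26 and Traf6, an adaptor ligase, by 0.21. Both calls of a fall were lost with the length trend removed (adjusted p = 0.138 and 0.372). For Traf6, DESeq2 made no call either (adjusted p = 0.107). Its adjusted p was 0.111 when Mock replicate 1 was left out and 0.145 when uniSTING replicate 1 was.

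**Figure D5:**
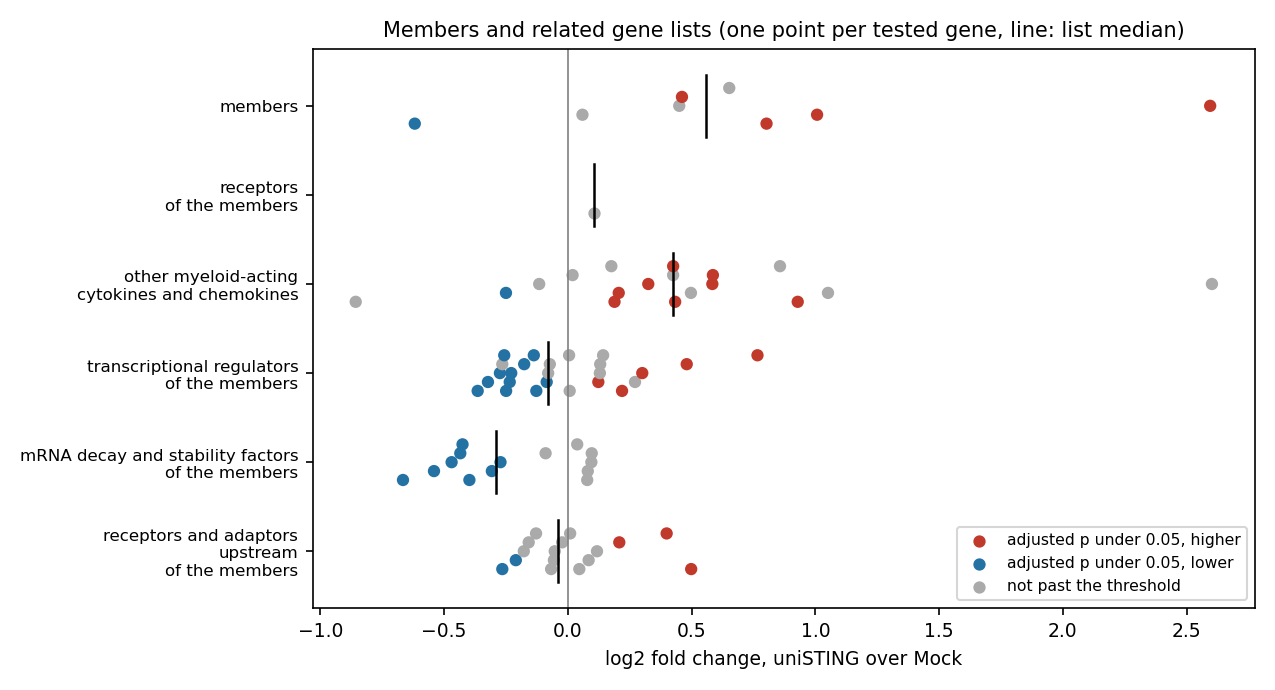
Log2 fold change of uniSTING over Mock for each tested gene of the 10 and of the related lists, coloured by the test at an adjusted p of 0.05, with the list median as a line. The secreted factors lie mostly above 0 and the mRNA decay and stability factors mostly below it, without removal of the length trend.

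By distance of log2 CPM over the 4 libraries among 10766 tested genes of at least 1 CPM, the genes nearest to Csf1, the most abundant gene that fell, were Glg1, Ptprs and Ltbp1 (distance 0.066, 0.078 and 0.084). Those nearest to Csf3, the most abundant gene that rose, were Grhpr, Med7 and Apool (distance 0.077, 0.081 and 0.084). Ltbp1, for example, had 256 and 254 CPM in Mock and 162 and 163 CPM in uniSTING, close to the values of Csf1.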

How the data were processed

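The deposited values are raw counts per gene that the authors made with featureCounts 2.0.1. Per the file headers, it summed exon reads by gene identifier from uniquely mapped alignments, with the paired-end option and no option for strand, on the Ensembl 103 annotation of GRCm39. HISAT2 was the aligner, per the submitters' processing notes, which name no version. Groups and replicate numbers came from the sample titles. Symbols were matched by gene identifier for 52093 of 53647 genes.

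Counts were tested with edgeR 4.0.16 (R 4.3.3): TMM scaling, its default low count filter (at least 10 counts, and 15 in total), a quasi-likelihood fit with group as the only term, and Benjamini-Hochberg adjusted p under 0.05 over 12972 genes. The standard error was derived from the F statistic. CPM used TMM-scaled library sizes, except in the plot of the gene cluster, and single-replicate fold changes used a prior count of 2. Ratios of few counts carry exact 95% binomial intervals. The test was checked on simulated counts.

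The 10 genes, the related lists and the alternatives were chosen with earlier results of these data known. The alternatives were DESeq2's size factors, no filter, a filter of 1 CPM in 2 libraries, DESeq2 1.42.0, limma-voom (limma 3.58.1), a replicate block, leaving out each library and removal of the length trend (lowess, span 0.3). Added after seeing the data were removal of length and GC trends, leaving out 54 genes seen in replicate 1 only, and each replicate number alone. Besides the 10 genes, the text names by rule all 13 listed receptor genes, up to 4 genes of smallest p per list, and the 3 nearest genes by level. Ppbp, Pf4, Cxcl15, Ccl11, Ccl12, Saa3, Lcn2, S100a8 and S100a9 were singled out after their values were seen.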

Additional observations from a re-analysis of the deposited data

How the results depend on the processing

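Cxcl1, Cxcl5, Csf3 and Csf1 kept their direction and call in all 13 alternative settings, and the numbers of the 10 genes that rose and fell were 3 to 4 and 1. Csf2 lost its call with DESeq2 and without Mock replicate 1, at log2 fold changes of 2.67 and 2.17, was 3.35 without Mock replicate 2, and was 2.04 and 1.82 in the replicate 1 and replicate 2 libraries alone, where the prior count shrinks it. Ccl20 changed sign without Mock replicate 1 (-0.092), with the length trend removed (-0.16), with length and GC trends removed (-0.32) and in replicate 2 alone (-0.088), was 0.23 without Mock replicate 2, and the cause was not tested. The replicate block changed no call of the 10 genes, of which 4 rose and 1 fell under it. The labels number preparations 1 and 2 in both groups and do not say that a preparation was shared. Deviations of same-numbered libraries correlated across the tested genes (Pearson r = 0.628), as a hint from the data on 2 pairs.

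In the related lists, counts moved by over 1.5 times as follows. Myeloid-acting factors that rose numbered 7 to 13 over the fits that left out 1 library, 13 without uniSTING replicate 2. Those that fell numbered 0 to 4 over these fits, 2 without the low count filter, 2 with the length trend removed and 0 with length and GC trends removed. Transcriptional regulators that rose numbered 3 with DESeq2, and those that fell 7 and 3 with length and with length and GC trends removed. mRNA decay and stability factors that rose numbered 0 to 1 over the fits that left out 1 library, 1 with a filter of 1 CPM, 1 with the replicate block, 4 with the length trend removed and 2 with length and GC trends removed. Upstream receptors and adaptors that fell numbered 1 with DESeq2, 1 to 3 over the fits that left out 1 library and 0 with length and GC trends removed. With 2 libraries a group, depth limits what can be said of Ccl7, Cxcl2, Csf2 and the receptor genes.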

Other observations

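Besides Cxcl1, Cxcl2 and Cxcl3, 25 genes had the motif GGGAATTTCC in a promoter window, and 10 of the 28 genes in all were tested. Of these 3 rose, namely Cxcl1, Nfkbia (log2 fold change 0.48) and the centrosomal gene Cep112 (1.08), and 2 fell, Trio (-0.64) and Zfp84 (-0.37). The other 5 tested genes, among them Cxcl3, did not pass. That is 5 of 10 past the threshold, beside 50.2% over all genes tested, and nothing is read from it about the motif. These genes were named after their values were seen.

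Kitl, which encodes stem cell factor, had 23.3 and 24.6 CPM in Mock and 36.4 and 35.6 CPM in uniSTING (edgeR, adjusted p = 3.59e-05). Il34, the other ligand of the Csf1 receptor, had 16.2 and 18.3 CPM in Mock and 22.3 and 24.1 CPM in uniSTING (log2 fold change 0.43, adjusted p = 0.00139), opposite in direction to Csf1. Lif rose from 61.9 and 60.5 CPM to 77.3 and 75.9 CPM. Flt3l, which encodes a growth factor of dendritic cells, was read 22 and 31 times with Mock and 13 and 19 times with uniSTING and did not pass (log2 fold change -0.86, adjusted p = 0.0749), and Il3 was at 0 in all libraries. These 5 genes were singled out after their values were seen and stand for no group.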
